A study of Homo sapiens with 4 samples.

Results

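The DNA replication and S-phase genes described here are 41 genes of the deposited expression table, which lists 50653 genes, and they were found by the Ensembl identifier of each named gene. They were chosen by function, as parts of origin licensing, the replication fork and nucleotide synthesis (the list was drawn up with earlier results of these data known). All 41 were found, and all 41 had a mean of at least 1 FPKM over the libraries, as did 14321 genes of the whole table. FPKM is the number of sequenced fragments of a gene per kilobase of transcript length, scaled to the library's total fragments. The mean length of a gene's annotated transcripts gave whole fragments for 87.2% to 87.6% of values. That mean can differ from the length of the mRNA a cell makes. Where genes are ranked by abundance below, the rank is one of FPKM and depends on this length.

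The study asked how gene expression changes when quinolinate phosphoribosyltransferase (QPRT), an enzyme of NAD synthesis from tryptophan, is silenced in breast cancer cells. BT-20 and MDA-MB-468, both established human cell lines of triple-negative breast cancer, were transduced with pLKO.1-puro lentivirus carrying a QPRT-targeting short hairpin RNA (shRNA) or with a lentiviral control shRNA, and were selected with puromycin. RNA was sequenced as 4 libraries, 1 for each line and shRNA. With 1 library a group, a difference within a line has no replicate check, and the counting intervals given with it cover counting error only.

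The libraries had been scaled to between 10321996 and 10945948 fragments. QPRT itself, the check of the labels, was at 249 FPKM in the control library of BT-20 and at 40.5 after QPRT silencing, and at 117 and 18.3 in MDA-MB-468, so that 16.3% and 15.6% of the control level were left. The 8 breast epithelial markers were all expressed, the receptor gene PGR was listed at 0 in all 4 libraries, ESR1 lay between 1.05 and 5.76 FPKM and ERBB2 between 50.7 and 129. Of 25 markers of gut, stomach and plasma cells, 23 were lower with QPRT shRNA in both lines. The same held for 17.7% of the 14321 genes that averaged at least 1 FPKM. With control and QPRT shRNA, the summed levels of the 25 markers were 113 and 50.7 FPKM for BT-20. For MDA-MB-468 the sums were 262 and 61.7 FPKM. The intestinal factor CDX2 reached at most 0.355 FPKM, and none of the 25 was at 0 in all libraries. Yet 17 of the 25 averaged at least 1 FPKM, with a highest value of 46.1 FPKM, in the MDA-MB-468 control library. At least 2-fold lower with QPRT shRNA were 15 of the 17 for MDA-MB-468 and 8 for BT-20. In the limma fit over both lines below, 12 of the 17 were called lower with QPRT shRNA, beside 52 of all 14321 genes. The 10 markers of stroma, endothelium and leukocytes summed to between 28.99 and 42.9 FPKM. PTPRC was at 0.34 FPKM or less and CD3E was listed at 0 in 3 libraries, but 4 of the 10 averaged at least 1 FPKM. The highest value among these 4 was 31.98 FPKM in the control library of BT-20 and 21.1 after QPRT silencing. For MDA-MB-468 it was 17.5 and 26.1. The part of these markers in the results on replication genes was not tested.

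Before S phase, the origin recognition complex, CDC6 and CDT1 load the MCM2 to MCM7 ring onto DNA, which licenses an origin. In S phase, CDC45 and the GINS complex turn the loaded ring into an active helicase, and polymerases, the PCNA clamp and a supply of deoxynucleotides carry out synthesis. Many of these genes are transcribed late in G1 and in S phase by E2F factors, which the retinoblastoma protein RB1 holds back, and their mRNA levels are widely used as a sign of proliferation. In a bulk library, a smaller share of cells in S phase and less of these mRNAs in each cell cannot be told apart.

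A property that the choice of genes did not use is the sequence in front of them. RefSeq promoter windows, 250 bases before to 50 after the gene's start on GRCh38.p14, matched 36 of the 41 genes. E2F-type letters (TTTGGCGC, TTTCCCGC, TTTCGCGC or TTTGCCGC, on either strand) stood in 19 of the 36 windows, which is 52.8%, against 908 of all 27305 windows, or 3.33%. The CCAAT box stood in 20, or 55.6%, against 35.7% of all windows. TTTGAA, the CHR element known from genes of G2 and mitosis, stood in 1, or 2.78%, against 15.4%. Upstream stretches of MCM6, POLA1 and PCNA are shown because these genes carry E2F-type letters in front of the start and were among those that differed between the cell lines, and the letters are in capitals. MCM6 holds 4 matches that overlap in pairs, starting 152, 148, 90 and 86 bases before the start, POLA1 holds 1 at 137 bases and PCNA 1 at 59 bases.
MCM6, chr2:135876444-135876693, minus strand: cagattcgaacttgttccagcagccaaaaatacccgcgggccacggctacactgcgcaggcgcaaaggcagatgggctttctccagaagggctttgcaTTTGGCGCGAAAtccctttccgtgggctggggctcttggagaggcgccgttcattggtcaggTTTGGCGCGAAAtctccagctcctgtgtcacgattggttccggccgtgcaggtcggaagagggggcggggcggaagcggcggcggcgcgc
POLA1, chrX:24693668-24693917, plus strand: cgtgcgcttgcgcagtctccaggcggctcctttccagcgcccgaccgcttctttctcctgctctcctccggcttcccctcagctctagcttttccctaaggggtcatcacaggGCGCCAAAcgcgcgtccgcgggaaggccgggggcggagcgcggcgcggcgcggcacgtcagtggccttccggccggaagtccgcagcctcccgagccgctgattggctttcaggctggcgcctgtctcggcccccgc
PCNA, chr20:5126623-5126872, minus strand: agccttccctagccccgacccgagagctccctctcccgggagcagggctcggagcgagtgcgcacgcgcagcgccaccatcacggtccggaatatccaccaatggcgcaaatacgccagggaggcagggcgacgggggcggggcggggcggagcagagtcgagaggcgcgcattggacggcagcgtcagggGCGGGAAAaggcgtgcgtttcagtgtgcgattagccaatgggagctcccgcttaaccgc

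RRM2, GMNN and FEN1 are shown because their windows hold none of these E2F-type letters, although GMNN and FEN1 had the largest differences between the lines and RRM2 the largest contrast in the knockdown values. In RRM2 the capitals mark 3 CCAAT boxes, while GMNN and FEN1 hold neither kind of letters, so nothing is capitalised. A match of letters is a description of sequence and no evidence of binding, and a window without a match says only that these letters are absent from it.
RRM2, chr2:10122489-10122738, plus strand: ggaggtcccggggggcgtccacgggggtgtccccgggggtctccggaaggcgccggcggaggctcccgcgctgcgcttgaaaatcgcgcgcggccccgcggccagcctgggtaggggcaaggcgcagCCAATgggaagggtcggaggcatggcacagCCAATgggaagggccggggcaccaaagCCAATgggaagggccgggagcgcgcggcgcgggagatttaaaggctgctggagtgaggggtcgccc
GMNN, chr6:24774687-24774936, plus strand: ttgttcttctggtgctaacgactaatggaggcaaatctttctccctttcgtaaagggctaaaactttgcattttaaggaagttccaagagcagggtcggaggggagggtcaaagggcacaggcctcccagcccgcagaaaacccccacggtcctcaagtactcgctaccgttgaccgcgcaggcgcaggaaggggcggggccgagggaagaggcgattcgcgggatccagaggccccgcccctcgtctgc
FEN1, chr11:61792661-61792910, plus strand: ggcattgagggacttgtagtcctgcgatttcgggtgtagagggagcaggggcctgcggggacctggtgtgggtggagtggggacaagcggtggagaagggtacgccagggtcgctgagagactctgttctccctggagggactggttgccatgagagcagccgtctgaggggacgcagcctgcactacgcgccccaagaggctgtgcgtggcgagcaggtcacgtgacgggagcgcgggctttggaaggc

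The 41 genes lie on 19 chromosomes, with at most 4 on any of them, ORC6, CDT1, GINS2 and GINS3 on chromosome 16 and POLD1, LIG1, CHAF1A and UHRF1 on chromosome 19. Their median GC content was 49.1% and their median transcript length 1444 bases, beside 49.5% and 1501 bases over the 14321 genes. They were expressed above the typical gene, with a median of the mean levels of 38.3 FPKM against 15.4 over all genes tested. Mean levels ran from 4.46 FPKM for CCNE2 to 210 for PCNA.

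**Figure D1:**
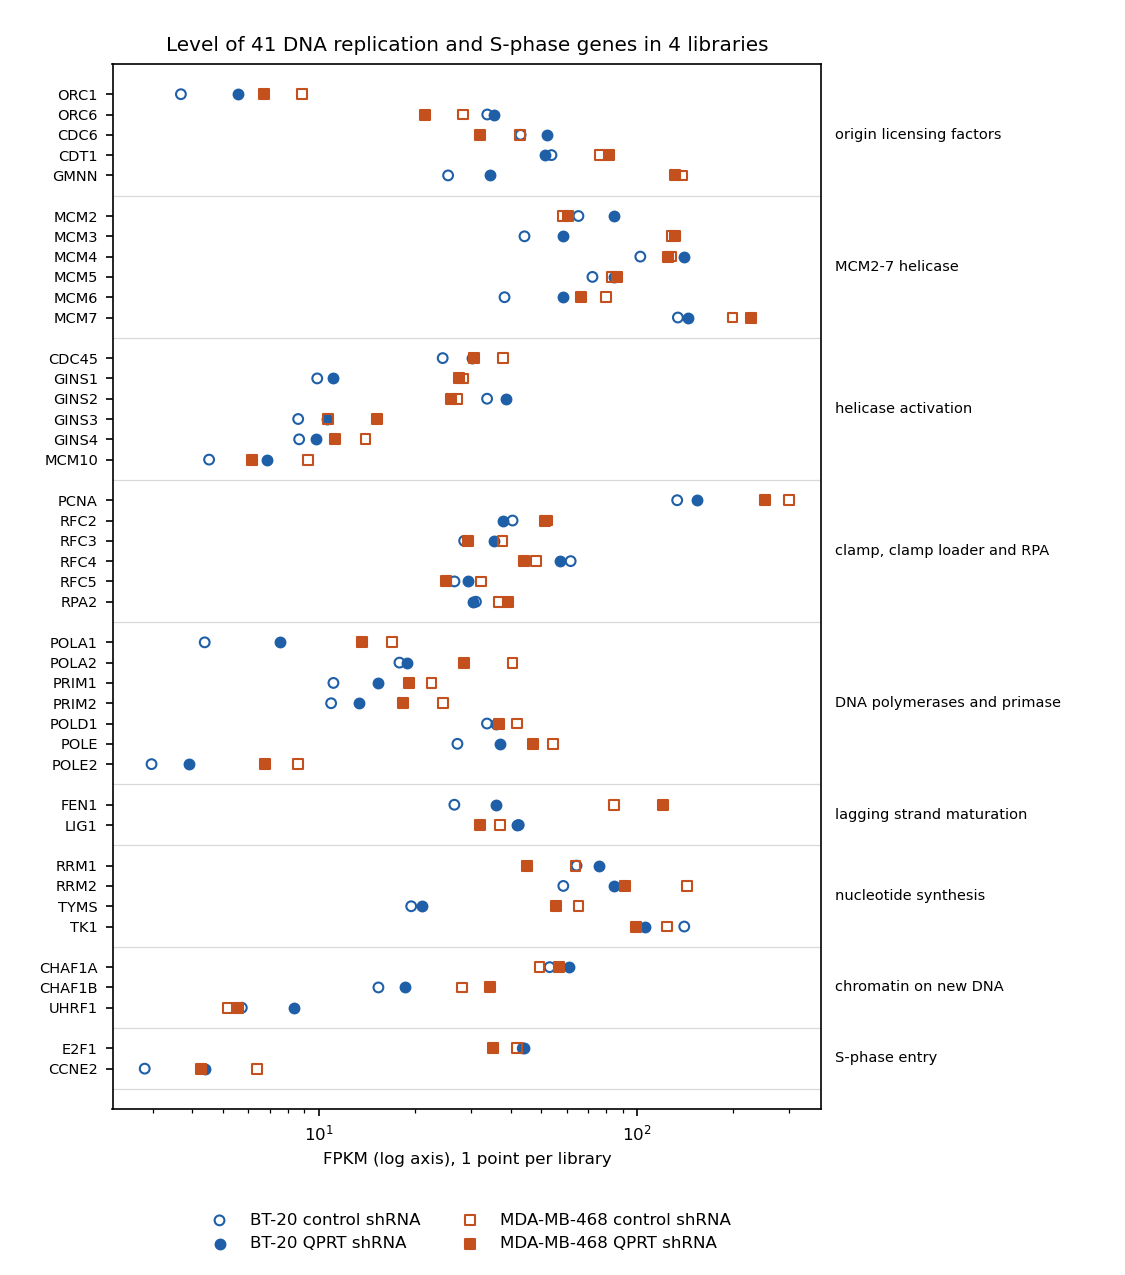
FPKM of each of the 41 genes (log axis) in the 4 libraries, ordered by role, with circles for BT-20, squares for MDA-MB-468, open symbols for control shRNA and filled symbols for QPRT shRNA. For 24 of the genes both squares lie to the right of both circles, and for 9 both lie to the left.

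Between the cell lines, the replication genes that differed were higher in MDA-MB-468. In a limma fit over the 4 libraries on log2(FPKM + 1), with cell line and shRNA as terms, 18 of the 41 genes were higher in MDA-MB-468 at an adjusted p under 0.05 and 0 were lower, where 30.7% of all genes tested were called higher and 24.4% lower. Upper quartile scaling, which aligns the libraries on their well-expressed genes and moves the median of all genes from 0.10 to 0.00 on the log2 scale, gave 17 higher and 4 lower (GINS2, ORC6, RFC4 and RRM1), beside 27.1% and 28.1% of all genes. Removing the trend on GC content and length gave 19 higher and the same 4 lower, beside 32.8% and 26.0%. The median difference of the 41 genes was 0.39 on the log2 scale, against 0.10 over all genes tested. Both MDA-MB-468 libraries lay above both BT-20 libraries for 24 genes, including all 18 that were called, and for 42.8% of all genes, and both BT-20 libraries lay above for 9 genes and for 34.7% of all genes. Since the fit leaves 1 residual degree of freedom per gene, it shares the spread across genes. The SE and p-value of a gene therefore follow the spread of genes at similar levels in these 4 libraries, not its own spread. RRM2 differed between the lines by 1.28 in the control pair and 0.12 in the QPRT pair, with an SE of 0.20. CHAF1A differed by -0.10 in both pairs, with an SE of 0.21. The lines were also grown in different media, and the part of that in the difference was not tested.

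Among the licensing factors, GMNN, which encodes geminin, the inhibitor that keeps CDT1 from loading the helicase again within a cycle, differed most. GMNN (GENCODE 29, chr6:24774931-24786099) was at 25.4 and 34.5 FPKM in the control and QPRT shRNA libraries of BT-20 and at 139 and 131 in those of MDA-MB-468. The lines did not overlap, and the difference was 2.15 ± 0.21 on the log2 scale (SE, adjusted p = 5.82e-24). CDT1, its target and a helicase loader, was at 53.8 and 51.1 FPKM in BT-20 and at 76.2 and 81.8 in MDA-MB-468, a difference of 0.58 ± 0.21 (adjusted p = 0.0105). ORC1, the largest subunit of the origin recognition complex, was the least abundant licensing factor. Its levels were 3.68 and 5.55 FPKM in BT-20 and at 8.85 and 6.71 in MDA-MB-468, and its difference of 0.65 ± 0.27 (adjusted p = 0.0292) was no longer called under upper quartile scaling or without the shRNA term. ORC6 and CDC6, the latter an ATPase that works with ORC in loading, were both lower in MDA-MB-468, by values of -0.47 and -0.34 that were not called.

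The 6 subunits of the MCM ring, which act in equal numbers in the hexamer, were called between the lines in 3 cases and not in the other 3. MCM3 was at 44.2 and 58.3 FPKM in BT-20 and at 128 and 131 in MDA-MB-468, a difference of 1.33 ± 0.20 (adjusted p = 3.53e-10). MCM6 was at 38.3 and 58.6 FPKM in BT-20 and at 79.7 and 66.7 in MDA-MB-468, a difference of 0.61 ± 0.21 (adjusted p = 0.00734). MCM7, the most abundant subunit in every library, was at 134 and 144 FPKM in BT-20 and at 199 and 227 in MDA-MB-468, a difference of 0.61 ± 0.19 (adjusted p = 0.00405). The libraries of the 2 lines did not overlap for these 3 subunits. MCM2, MCM4 and MCM5 had differences of -0.32, 0.07 and 0.11 that were not called, and those of MCM4 and MCM5 turned negative under upper quartile scaling. From the highest to the lowest subunit, the FPKM values spanned 3.51-fold in BT-20 with control shRNA and 2.47-fold with QPRT shRNA. In the MDA-MB-468 libraries they spanned 3.41-fold and 3.74-fold.

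Of the factors that activate the helicase, GINS1 alone was called. This subunit of the GINS complex was at 9.87 and 11.1 FPKM in BT-20 and at 28.3 and 27.5 in MDA-MB-468, a difference of 1.33 ± 0.24 (adjusted p = 9.37e-08). The other 3 GINS genes, whose proteins act with it in a complex of equal parts, were not called. GINS2, the most abundant factor of this group, was at 33.7 and 38.7 FPKM in BT-20 and at 27.1 and 26.1 in MDA-MB-468, while GINS3 and GINS4 had differences of 0.38 and 0.41 that were not called. CDC45 and MCM10, which help to open the helicase, had uncalled differences of 0.31 and 0.38.

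At the fork, the sliding clamp PCNA had the highest mean level of the 41 genes, although TK1 and MCM7 exceeded it in the BT-20 control library. It was at 133 and 155 FPKM in BT-20 and at 300 and 252 in MDA-MB-468, a difference of 0.93 ± 0.19 (adjusted p = 5.45e-06). The loader genes were not called. The small subunits RFC2, RFC3, RFC4 and RFC5 had differences of 0.39, 0.06, -0.36 and 0.02, none of them called, and those of RFC3 and RFC5 changed sign under upper quartile scaling and when the GC and length trend was removed. RPA2, a subunit of the protein that coats single-stranded DNA, had a difference of 0.29 that was not called. RFC5, the least abundant of this group, was at 26.6 and 29.4 FPKM in BT-20 and at 32.2 and 25.1 in MDA-MB-468.

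Polymerases and primase were the group with the largest share called, 6 of 7 genes, each with both MDA-MB-468 libraries above both of BT-20. POLA1, the catalytic subunit of polymerase alpha, which starts each new strand together with primase, had the largest difference of the group. POLA1 (chrX:24693919-24996986) was at 4.37 and 7.52 FPKM in BT-20 and at 16.9 and 13.7 in MDA-MB-468, a difference of 1.26 ± 0.25 (adjusted p = 3.04e-06). Its partner POLA2 was at 17.9 and 19.0 FPKM in BT-20 and at 40.5 and 28.6 in MDA-MB-468 (0.85 ± 0.23, adjusted p = 0.000487). The primase subunits also belonged to the called genes. PRIM1, which makes the RNA primer, was at 11.1 and 15.3 FPKM in BT-20 and at 22.6 and 19.1 in MDA-MB-468 (0.63 ± 0.24, adjusted p = 0.0159). PRIM2 was at 10.9 and 13.3 FPKM and at 24.5 and 18.3 (0.76 ± 0.24, adjusted p = 0.00336).

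POLE, the catalytic subunit of the leading strand polymerase epsilon, had the highest mean FPKM of the polymerase group. It was at 27.2 and 37.1 FPKM in BT-20 and at 54.3 and 47.0 in MDA-MB-468, a difference of 0.65 ± 0.22 (adjusted p = 0.00567). Its accessory subunit POLE2, the least abundant of the group, was at 2.98 and 3.90 FPKM in BT-20 and at 8.57 and 6.76 in MDA-MB-468 (0.97 ± 0.27, adjusted p = 0.00109). POLD1, the catalytic subunit of polymerase delta, had a difference of 0.17 that was not called, except when the GC and length trend was removed.

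Of the genes that finish the lagging strand, FEN1, the flap endonuclease that trims Okazaki fragments, was called, and LIG1, the ligase that seals them, was not. FEN1 (chr11:61792637-61797244) was at 26.6 and 35.9 FPKM in BT-20 and at 84.3 and 121 in MDA-MB-468, a difference of 1.67 ± 0.21 (adjusted p = 1.28e-14). LIG1 was at 42.4 and 41.8 FPKM in BT-20 and at 37.1 and 32.1 in MDA-MB-468, a difference of -0.28 ± 0.22 (adjusted p = 0.27).

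In nucleotide synthesis, TYMS and RRM2 were called and RRM1 and TK1 were not. TYMS, thymidylate synthase, was at 19.5 and 21.1 FPKM in BT-20 and at 65.4 and 55.7 in MDA-MB-468, a difference of 1.53 ± 0.22 (adjusted p = 2.01e-11). Of its annotated exon bases 46.6% are shared with the opposite-strand genes ENOSF1 and TYMSOS, and it is not stated whether the counting used strand. RRM2, the S-phase subunit of ribonucleotide reductase, was at 58.6 and 84.2 FPKM in BT-20 and at 143 and 91.4 in MDA-MB-468 (0.70 ± 0.20, adjusted p = 0.00142). The large reductase subunit RRM1 was at 64.4 and 75.7 FPKM in BT-20 and at 63.9 and 45.2 in MDA-MB-468, so the subunits of this enzyme differed between the lines in opposite directions, RRM1 without a call. TK1, thymidine kinase of the salvage route, was at 141 and 105 FPKM in BT-20 and at 124 and 99.4 in MDA-MB-468, and the lines overlapped.

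CHAF1A and CHAF1B are subunits of the assembly factor that places histones on new DNA. CHAF1B was at 15.4 and 18.6 FPKM in BT-20 and at 28.1 and 34.4 in MDA-MB-468, a difference of 0.84 ± 0.23 (adjusted p = 0.000661). CHAF1A was at 53.1 and 61.1 FPKM and at 49.3 and 56.8, and the lines overlapped. UHRF1, which recognises DNA methylated on the parental strand, was at 5.72 and 8.33 FPKM in BT-20 and at 5.16 and 5.56 in MDA-MB-468 and was not called. The genes of S-phase entry were not called either. The transcription factor E2F1 was at 43.7 and 44.0 FPKM in BT-20 and at 42.0 and 35.3 in MDA-MB-468, and CCNE2, the cyclin E2 that activates CDK2, at 2.83 and 4.37 FPKM and at 6.37 and 4.27. RB1, known to be lost in MDA-MB-468, and CDKN2A, known to be deleted in BT-20, act before S-phase entry. The part of either gene in the differences between the lines was not tested. RB1 was at 33.7 and 46.1 FPKM in BT-20 and at 1.61 and 1.96 in MDA-MB-468, and CDKN2A, which encodes an inhibitor of CDK4 and CDK6, was listed at 0 and at 1.01 FPKM in BT-20 and reached 225 and 244 in MDA-MB-468.

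**Figure D2:**
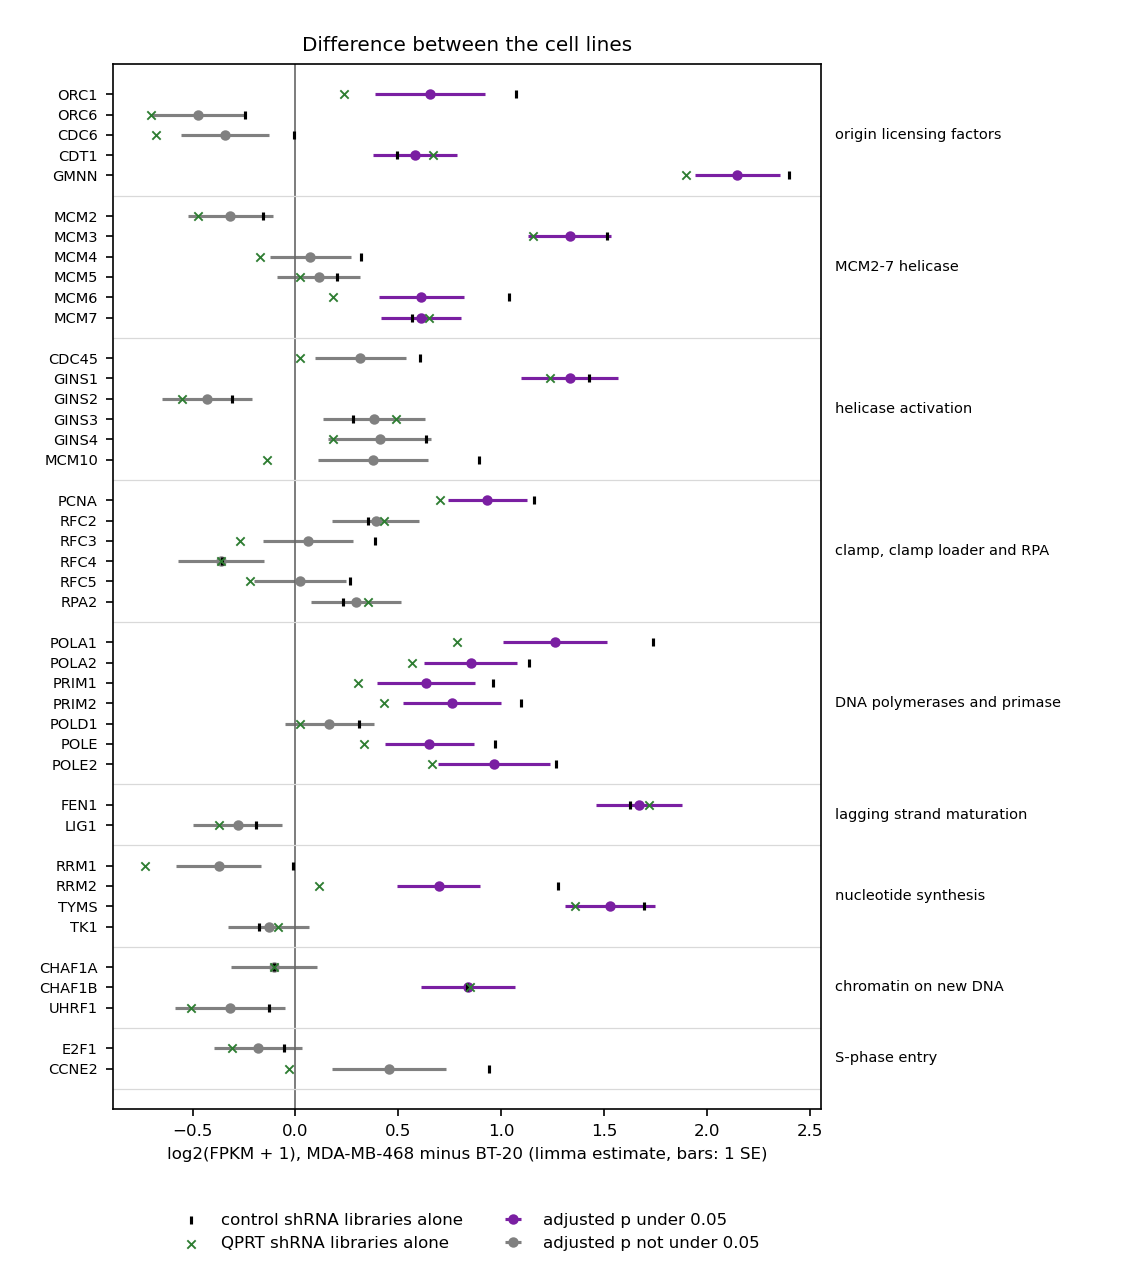
Difference between the lines for each of the 41 genes on the log2(FPKM + 1) scale, MDA-MB-468 minus BT-20, as the limma estimate over 4 libraries with 1 SE, and as the value in the control shRNA pair (bars) and the QPRT shRNA pair (crosses) of libraries. The 18 called genes all lie to the right of 0, from 0.58 for CDT1 to 2.15 for GMNN, and for 32 genes the cross lies to the left of the bar.

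Fewer of these genes were at least 2-fold apart between the lines in the libraries with QPRT shRNA. Among control shRNA libraries, 13 of the 41 genes exceeded BT-20 in MDA-MB-468 by 2-fold or more on the log2(FPKM + 1) scale and 0 fell short by as much, beside 18.3% and 13.2% of all genes. Among QPRT shRNA libraries, 5 of the 41 did (FEN1, GINS1, GMNN, MCM3 and TYMS) and 0 were 2-fold lower, beside 17.4% and 13.9% of all genes. For 32 of the 41 genes the difference between the lines, MDA-MB-468 minus BT-20, was lower in the QPRT shRNA pair, as for 53.1% of all genes. In size, whatever the sign, the difference was smaller for 25 genes, beside 50.9% of all genes, and larger for 16, among them RRM1 (from -0.01 to -0.73) and ORC6 (from -0.24 to -0.70). The median difference of the 41 genes was 0.57 in the control pair and 0.18 in the QPRT pair, against 0.12 and 0.07 over all genes. RRM2 was 2.45 times as high in MDA-MB-468 as in BT-20 with control shRNA and 1.09 times with QPRT shRNA. MCM6 went from 2.08 to 1.14 times and POLA1 from 3.87 to 1.82 times, while FEN1 kept 3.17 and 3.35 times.

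Within BT-20, most replication genes were higher with QPRT shRNA, each by less than 2-fold. None of the 41 was changed 2-fold on the log2(FPKM + 1) scale, in a comparison where 1.05% of all genes passed 2-fold upward and 0.649% downward. On the same scale POLA1 and MCM6 were at least 1.5-fold higher, as were 5.7% of all genes, and 0 of the 41 at least 1.5-fold lower, beside 3.27%. By the plain ratio of FPKM values ORC1, MCM10 and CCNE2 also passed 1.5 times, which makes 5 genes. By any amount, 35 of the 41 were higher with QPRT shRNA and 6 lower, where 56.4% of all genes were higher. Under upper quartile scaling 30 were higher and 11 lower, beside 44.7% and 54.7% of all genes, with E2F1, MCM7, ORC6, POLA2 and POLD1 changing sign, and with the GC and length trend removed 39 were higher. The median difference was 0.26 on the log2 scale for the 41 genes and 0.05 for all genes, and 0.16 and -0.04 under upper quartile scaling. The 95% counting interval, an exact Clopper-Pearson interval of the fragments of both libraries, lay above no change for 24 of the 41 genes and for 26.8% of all genes, and below it for 1 gene and for 16.7% of all genes. Under upper quartile scaling it lay above for 16 of the 41 genes, and the share of all genes under that scaling is not given here.

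Within MDA-MB-468, most of the same genes were lower with QPRT shRNA. Again none of the 41 was changed 2-fold, where 1.03% of all genes passed 2-fold upward and 0.866% downward. On the log2(FPKM + 1) scale RRM2 was at least 1.5-fold lower, as were 3.71% of all genes, and none at least 1.5-fold higher, beside 5.46%. By any amount 30 of the 41 were lower and 11 higher, where 47.6% of all genes were lower, and 30 remained lower under upper quartile scaling and under TPM scaling, which gives each library the same sum, and 32 when the GC and length trend was removed. The median difference was -0.23 on the log2 scale for the 41 genes and 0.01 for all genes. The counting interval lay below no change for 22 of the 41 genes and for 21.1% of all genes, and above it for 5 genes and for 22.9% of all genes.

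The signs in the lines were opposite for 28 of the 41 genes and for 54.6% of all genes. Of the 41, 26 were higher in BT-20 and lower in MDA-MB-468, as were 29.8% of all genes, and 2 were the reverse, as were 24.8%. Another 9 were higher in both lines, beside 26.2%, and 4 lower in both, beside 17.7%. For 12 of the 41 genes the counting interval lay above no change in BT-20 and below it in MDA-MB-468, which held for 8.82% of all genes. The knockdown difference of MDA-MB-468 minus that of BT-20 had a median of -0.45 on the log2 scale over the 41 genes and of -0.04 over all genes. With 1 library a group, a term for this difference leaves no residual degrees of freedom, so it was not tested. 

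**Figure D3:**
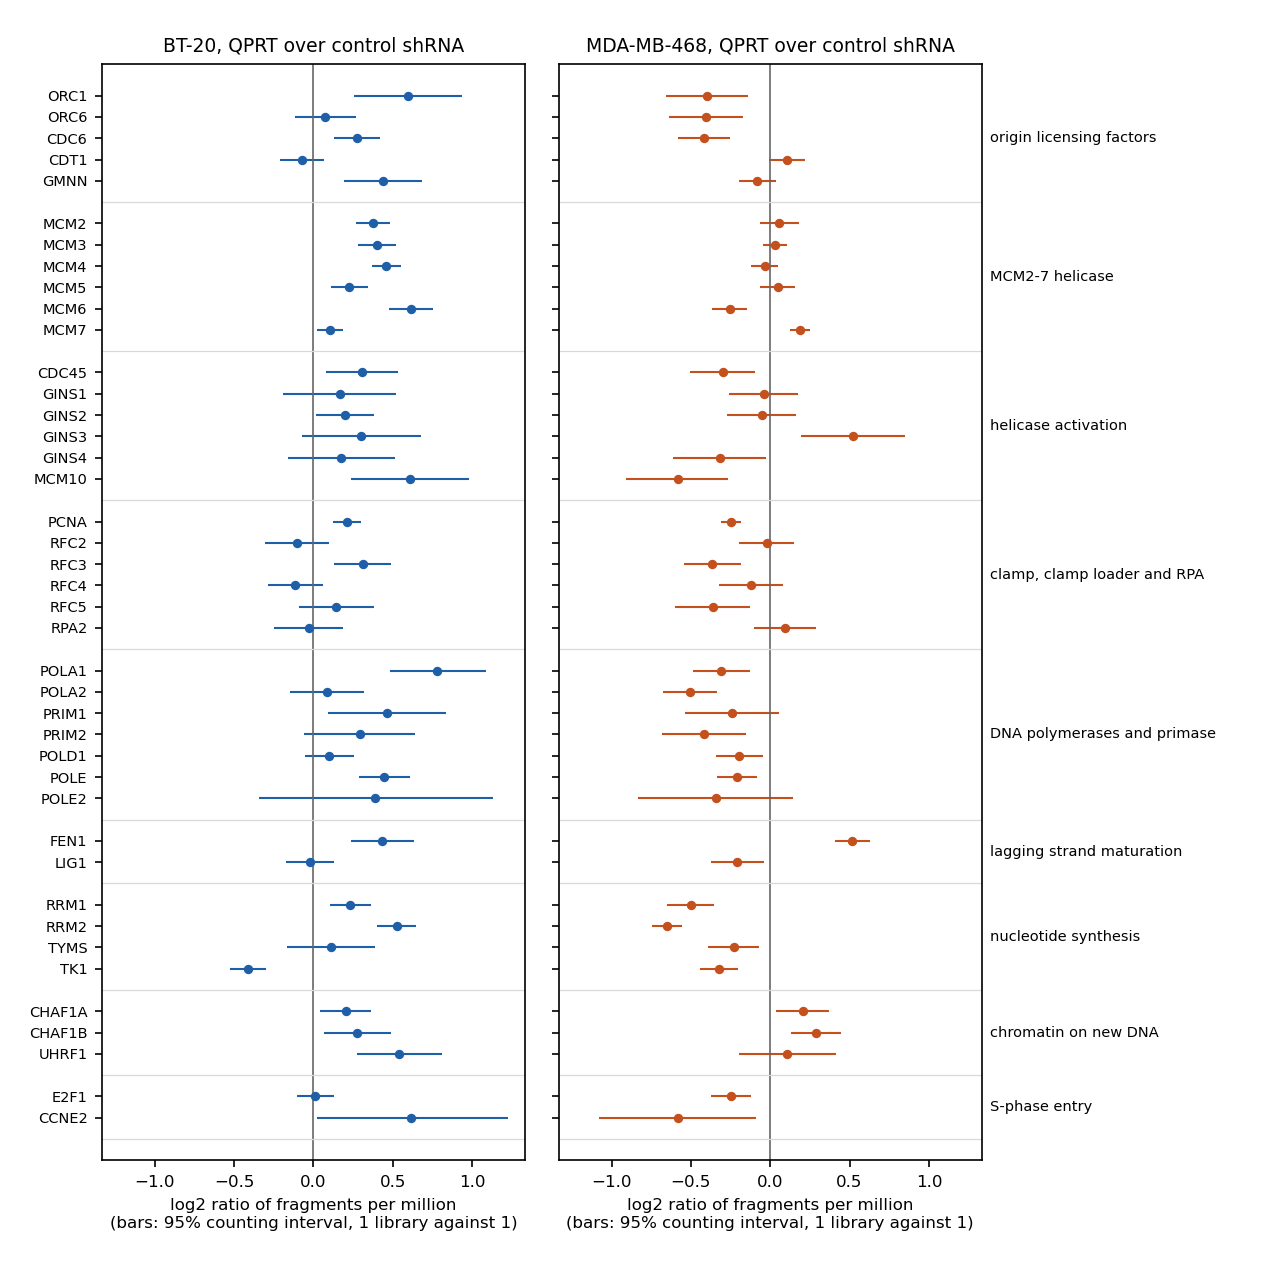
Ratio of fragments, scaled to the library totals, with QPRT shRNA over control shRNA for each gene in BT-20 (left) and MDA-MB-468 (right) on the log2 scale, 1 library against 1, with bars for the exact 95% counting interval. Of the 41 intervals, 24 lie above 0 in BT-20 and 22 lie below 0 in MDA-MB-468, while FEN1, CHAF1A, CHAF1B and MCM7 lie above 0 in both and TK1 lies below 0 in both.

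The MCM subunits were the group with the highest median in BT-20. All 6 were higher there, with counting intervals above no change, as for 26.8% of all genes. MCM6 (chr2:135839626-135876426) was 1.53 times its control level in BT-20 (counting interval 1.39 to 1.69) and 0.837 times in MDA-MB-468 (0.774 to 0.905). For MCM4 the levels were 102 and 141 FPKM in the control and QPRT shRNA libraries of BT-20 and 128 and 125 FPKM in those of MDA-MB-468. MCM2 was at 65.3 and 84.7 FPKM in BT-20 and at 58.4 and 60.8 in MDA-MB-468. MCM7 was the only subunit with an interval above no change in both lines, at 1.08 times (1.02 to 1.14) and 1.14 times (1.09 to 1.19) its control level, but its sign in BT-20 turned under upper quartile scaling. The median of the ring in MDA-MB-468 was 0.04, unlike the medians of licensing factors, polymerases and nucleotide synthesis there, which were -0.35, -0.29 and -0.41.

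All 7 polymerase and primase genes were higher in BT-20 and lower in MDA-MB-468 by any amount, as were 29.8% of all genes. Under upper quartile scaling, however, POLA2 and POLD1 were lower in BT-20 as well. The counting interval lay above no change in BT-20 for 3 of the 7 and below it in MDA-MB-468 for 5. Both held for 2 of them, POLA1 and POLE, and for 8.82% of all genes. POLA1 was 1.72 times its control level in BT-20 (counting interval 1.40 to 2.12) and 0.808 times in MDA-MB-468 (0.712 to 0.916). POLE was 1.36 times its control level in BT-20 (1.22 to 1.52) and 0.866 times in MDA-MB-468 (0.793 to 0.945). POLA2 was 1.06 times its control level in BT-20, with an interval of 0.902 to 1.24 that includes no change, and 0.704 times in MDA-MB-468 (0.625 to 0.794). POLE2 rested on as few as 29 fragments in a library, and its intervals included no change in both lines.

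In nucleotide synthesis, RRM2 had the largest contrast between the lines of the 41 genes. RRM2 (chr2:10120698-10131419) was 1.44 times its control level in BT-20 (1.32 to 1.57) and 0.637 times in MDA-MB-468 (0.596 to 0.681), and the large subunit RRM1 was 1.18 times (1.07 to 1.29) and 0.707 times (0.638 to 0.784). TYMS had a difference of 0.11 on the log2 scale in BT-20 with an interval that includes no change, and of -0.23 in MDA-MB-468. TK1 departed from the other 3, at 0.751 times its control level in BT-20 (0.694 to 0.812) and 0.80 times in MDA-MB-468 (0.737 to 0.869). It was the only one of the 41 genes whose interval lay below no change in BT-20.

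Of the licensing factors, ORC1 and CDC6 had intervals on opposite sides of no change. ORC1 was 1.51 times its control level in BT-20 (1.19 to 1.91) and 0.758 times in MDA-MB-468 (0.634 to 0.906). CDC6, at 43.0 FPKM with control shRNA, reached 52.0 with QPRT shRNA in BT-20, whereas its 42.8 FPKM in MDA-MB-468 stood against 32.1. GMNN was 1.35 times its control level in BT-20 (1.14 to 1.61) and 0.945 times in MDA-MB-468, where its interval of 0.873 to 1.02 includes no change. CDT1 showed the other order, with 0.951 times in BT-20 and 1.07 times in MDA-MB-468, both with intervals that include no change. Removing the GC and length trend changed the sign of CDT1 in both lines.

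Among the genes of helicase activation, MCM10 had the largest contrast between the lines. With control and QPRT shRNA it was at 4.52 and 6.88 FPKM in BT-20 and at 9.24 and 6.16 in MDA-MB-468. CDC45 was at 24.5 and 30.2 FPKM in BT-20 and at 37.8 and 30.7 in MDA-MB-468. In both of these genes the intervals lay on opposite sides of no change. GINS3 was higher in both lines, at 1.23 times its control level in BT-20, where the interval includes no change, and 1.43 times in MDA-MB-468 (1.15 to 1.80). CCNE2 followed MCM10 in sign, at 1.54 times its control level in BT-20 and 0.67 times in MDA-MB-468, on as few as 40 fragments, and 37.1% of its exon bases are shared with genes on the opposite strand. E2F1 was 1.01 times its control level in BT-20, with an interval of 0.929 to 1.09, and 0.841 times in MDA-MB-468 (0.77 to 0.918).

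For the clamp group, PCNA was 1.16 times its control level in BT-20 (1.09 to 1.23) and 0.842 times in MDA-MB-468 (0.805 to 0.88). Of the clamp loader subunits, RFC3 had intervals on opposite sides, with 28.6 and 35.4 FPKM in BT-20 and at 37.7 and 29.3 in MDA-MB-468. RFC2, RFC4 and RPA2 had intervals that include no change in both lines, and RFC5 had such an interval in BT-20.

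FEN1 and the genes of chromatin on new DNA were higher in both lines. FEN1 was 1.35 times its control level in BT-20 (1.18 to 1.55) and 1.43 times in MDA-MB-468 (1.33 to 1.54). CHAF1A was 1.15 times its control level in both lines, with intervals of 1.03 to 1.29 and 1.02 to 1.30, and CHAF1B was 1.21 times (1.05 to 1.40) and 1.22 times (1.10 to 1.36). UHRF1 was 1.46 times its control level in BT-20 (1.21 to 1.75) and 1.08 times in MDA-MB-468, with an interval that includes no change. LIG1 was lower in both lines, by -0.02 and -0.20 on the log2 scale, with the sign in BT-20 turning under TPM scaling.

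Over both lines, no replication gene was called for QPRT shRNA. In the limma fit with the line as a term, 0 of the 41 were higher and 0 lower at an adjusted p under 0.05, where 0.265% of all genes were called higher and 0.363% lower. The same count of 0 came from limma-voom on the recovered fragments. At an unadjusted p under 0.05 limma gave 1 of the 41 genes, beside 687 of all 14321. This was FEN1, with a difference of 0.47 ± 0.21 (SE, unadjusted p = 0.0256, adjusted p = 0.828). With limma-voom the count was also 1, beside 596 of all 14232 genes in that fit. The median over the 41 genes was 0.00 on the log2 scale. In this fit, differences of opposite sign in the 2 lines cancel in the estimate, as for RRM2 (-0.06 over both lines). The fit therefore bears only on differences that the lines share.

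Genes with and without E2F-type letters had medians that lay close together within each line. Among the 19 genes with E2F-type letters, 17 were higher in BT-20 and 13 lower in MDA-MB-468, with median differences of 0.27 and -0.20. Among the 17 genes whose windows lack them, 14 were higher in BT-20 and 14 lower in MDA-MB-468, with medians of 0.26 and -0.29. Of all genes tested, 56.4% were higher in BT-20 and 47.6% lower in MDA-MB-468. Between the lines, 11 of the 19 and 7 of the 17 were called higher in MDA-MB-468, beside 30.7% of all genes. The median differences between the lines lay further apart, at 0.61 with these letters and 0.38 without. No test was made of these splits.

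In a wider list of replication genes the medians lay nearer to 0. This list held 51 other replication genes, from the remaining origin recognition subunits to the histone chaperones. With QPRT shRNA 35 of the 51 were higher in BT-20 and 38 lower in MDA-MB-468, beside 56.4% and 47.6% of all genes. Their medians were 0.11 and -0.15. Between the lines, limma called 20 of them higher and 5 lower in MDA-MB-468, beside 30.7% and 24.4% of all genes. All 25 genes of a mitosis list were lower in MDA-MB-468 with QPRT shRNA, with a median of -0.45. Each had a counting interval below no change there, as did 21.1% of all genes. In BT-20 10 of the 25 were higher and 15 lower, with a median of -0.03. The interval there lay below no change for 11 of the 25 and above it for 4, beside 16.7% and 26.8% of all genes. It lay below no change in both lines for 11 of the 25, beside 472 of 14232 genes. Of 26 G1 and G1/S regulators, 25 passed the filter on low values. Of these, 20 were higher in BT-20 and 16 higher in MDA-MB-468, beside 56.4% and 51.5% of all genes, with medians of 0.32 and 0.11. None of the 51, 25 or 25 genes was called for QPRT shRNA over both lines. An unadjusted limma p under 0.05 was found for 0, 3 and 2 of them, beside 687 of all 14321 genes.

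**Figure D4:**
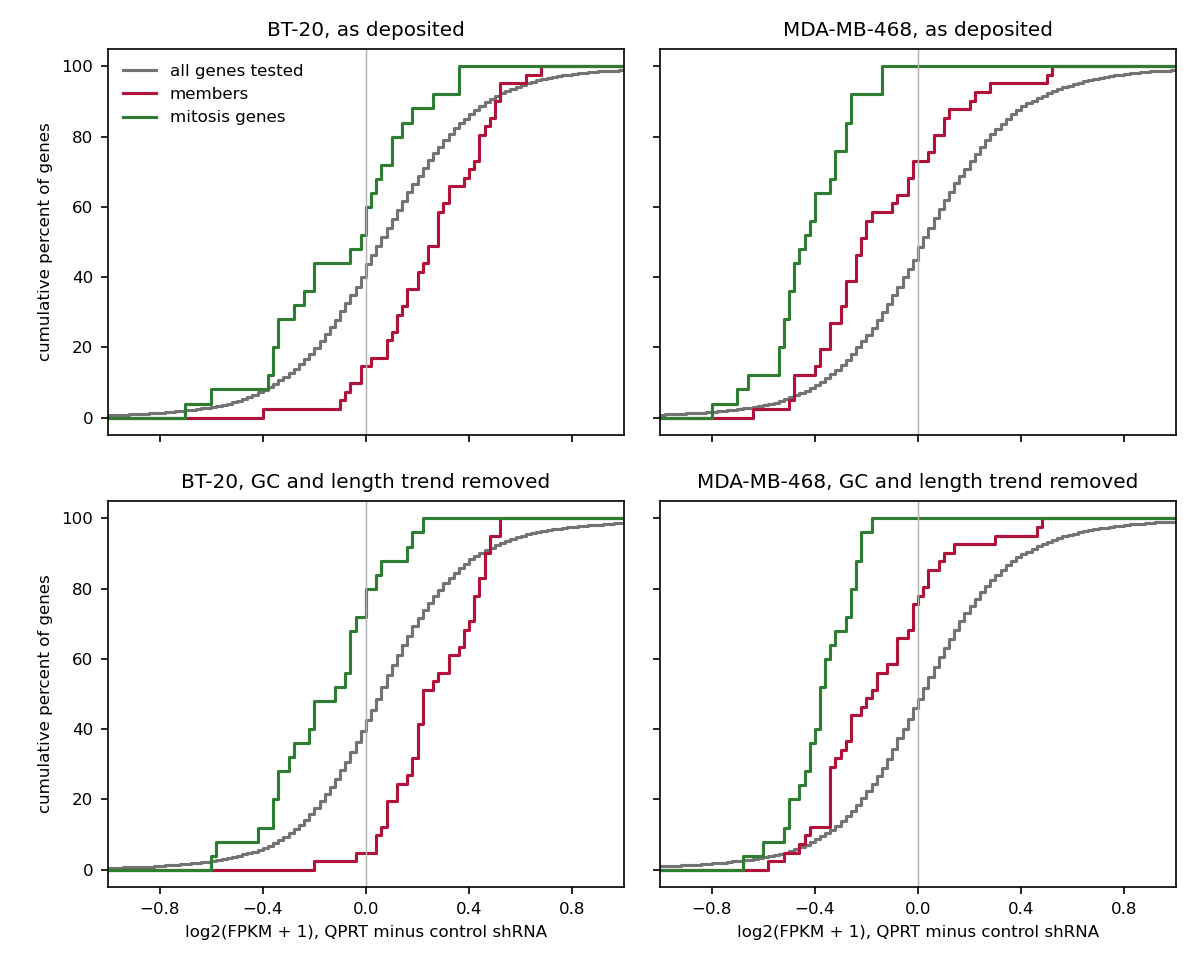
Cumulative percent of genes by their log2(FPKM + 1) difference, QPRT shRNA minus control shRNA, in each line, as deposited (top) and after removal of a trend on GC content and length (bottom), for all 14321 genes tested, the 41 replication genes (members) and 25 mitosis genes. The curve of the 41 genes lies to the right of all genes in BT-20 (median 0.26 against 0.05) and to the left in MDA-MB-468 (-0.23 against 0.01), and keeps these sides after the trend was removed (0.22 and -0.20).

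For 6 of the 41 genes (CDC6, MCM3, MCM4, POLD1, CCNE2 and RRM2) the recovered fragments were not whole numbers at the transcript lengths used, so their counting intervals rest on rounded estimates. Besides TYMS and CCNE2, at least 20% of the exon bases of POLA2, MCM2, GINS4, PRIM1 and RRM2 are shared with another gene. Reads in such bases could be assigned to either gene.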

How the data were processed

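BT-20 and MDA-MB-468 cells stably carrying control or QPRT shRNA gave 4 libraries from total RNA (TruSeq RNA kit, NovaSeq). After adaptor and quality trimming, the authors deposited FPKM values per Ensembl gene. The submitters' processing notes name TopHat2 2.0.12 and HTSeq 0.6.1, and CASAVA, FastQC and MultiQC without a version. Genome build and annotation are not given in the sources used here. The authors used DESeq2 for differential expression. The deposited values are not counts, so limma was used here.

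Differences were taken on log2(FPKM + 1), which understates changes of low genes, for 14321 genes averaging 1 FPKM or more. limma 3.58.1 (R 4.3.3) was fitted as cell line plus shRNA, with eBayes trend and Benjamini-Hochberg adjustment over all genes, and was tested on simulated data. Fragments were recovered from FPKM and GENCODE 29 transcript lengths (87.2% to 87.6% of values whole within 0.02) for counting intervals. Trends on GC content and length were removed by lowess (fraction 0.3). Alternatives were a pseudocount of 0.1, upper quartile or TPM scaling, other filters, a 1.5-fold threshold, fits without the trend or the other term, and limma-voom. Python 3.11.15 with scipy 1.17.1 was used.

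Members and lists were chosen with earlier results of these data known. All 41 members are named. Values per library are given for those called by limma, past 1.5-fold in a line, or highest or lowest of their role, and others were named after their values were seen.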

Additional observations from a re-analysis of the deposited data

Results flagged for a closer look

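The difference with QPRT shRNA had opposite signs in the lines for 28 of the 41 genes, beside 54.6% of all genes tested. This contrast between the lines was not tested because each group has 1 library. Over the 41 genes the MDA-MB-468 difference minus the BT-20 difference had a median of -0.45 on the log2(FPKM + 1) scale, against -0.04 over all genes. The counting interval lay above no change in BT-20 and below it in MDA-MB-468 for 8.82% of all genes and for 12 of the 41. These were RRM2 (-1.16), MCM10 (-1.03), CCNE2 (-0.97), POLA1 (-0.95), MCM6 (-0.85), ORC1 (-0.84), RRM1 (-0.72), CDC6 (-0.67), RFC3 (-0.66), POLE (-0.64), CDC45 (-0.59) and PCNA (-0.46), with the same difference of differences in parentheses. The intervals of CCNE2, CDC6 and RRM2 rest on rounded fragments.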

How the results depend on the processing

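Of 2-fold changed genes within a line there were 0, and on the log2(FPKM + 1) scale a threshold of 1.5-fold gave 2 (BT-20) and 1 (MDA-MB-468). The 18 genes called between the lines became 0 without a filter on low values, a setting in which limma called 0 of 50653 genes in either comparison. At a 2-fold threshold on the QPRT shRNA libraries alone the count was 5. The other alternatives kept the count within 1.5 times, and kept the sign of the median difference within each line, which in BT-20 went from 0.26 to 0.16 under upper quartile scaling. Chosen after seeing the data were the counts by sign and by counting interval under the alternatives. Genes higher in BT-20, genes lower in MDA-MB-468 and intervals on these sides stayed within 1.5 times, but genes lower in BT-20 went from 6 to 11 under upper quartile scaling and to 2 after removal of the GC and length trend. For QPRT shRNA over both lines every fit gave 0 of the 41 genes. Unadjusted p was under 0.05 in 0 to 2 of them and in 17 to 881 of all genes fitted. Over all genes that fit called 90 genes, but 24 after removal of the GC and length trend, 45 at a mean FPKM of at least 5 and 0 without the line as a block or without the filter. Leaving out a library was not possible, since it leaves no residual degrees of freedom. The cell line is the only pairing, and the fit with it as a term is the one reported. Depth limits the low genes most: POLE2, with 29 fragments in BT-20 control shRNA, had a counting interval of 0.789 to 2.20 times its control level there.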
